A study of Mus musculus with 12 samples.

Results

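The 10 stress-response genes followed here, centred on Atf4, were measured in mouse bone marrow-derived macrophages (BMDMs): Atf4, Ddit3, Trib3, Chac1, Asns, Psat1, Sesn2, Ddit4, Atf5 and Xbp1. They were taken by symbol from a count table of 24421 genes. All 10 of 10 were found, and all 10 passed the filter on low counts that left 11468 genes for testing. Marrow of C57BL/6 mice was cultured with M-CSF (100 ng/mL, 5 days, new medium on day 3), and the BMDMs then received, for 4 hours, either 5.0 µM I-BET151 (iBET), which blocks the bromodomains of BET proteins, or the solvent, listed as 5% DMSO. The labels give no DMSO content for the iBET groups, so whether solvent dose was equal is not known. The stimulus was ovalbumin, either free (Ova) or complexed with IgG (IC), the form that engages Fc gamma receptors. The 12 libraries form 4 groups of 3. Every group holds 1 library from each of the mice A, B and C, and a library is named here by drug, stimulus and mouse (DMSO Ova A). All groups share the M-CSF culture and contact with ovalbumin, and none was left without stimulus. The labels have drug and stimulus added together, whereas the study's text has the drug first.

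The integrated stress response begins when a kinase senses amino acid shortage, misfolded protein in the endoplasmic reticulum (ER), viral RNA or lack of heme and phosphorylates the translation factor eIF2. General protein synthesis then falls, while translation of the Atf4 mRNA rises. The ATF4 protein, a transcription factor that pairs with C/EBP family members, switches on genes for amino acid synthesis and uptake, for brakes on the growth kinase complex mTORC1 and, with Ddit3 (CHOP), for cell death. Since the control of Atf4 is largely translational, counts of its mRNA do not measure its protein. Xbp1 belongs to a separate arm of the ER stress response, in which the kinase IRE1 splices its mRNA, a step that counts per gene do not show.

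The promoters of the 10 genes were read from RefSeq (GRCm38.p6, 12 windows, each from 250 bases before to 50 after a transcript start). The core of the C/EBP-ATF response element, TGATGNAA on either strand, was present in windows of 3 of the 10 genes, Trib3, Chac1 and Asns. Over all promoters it was present for 1219 of 27025 genes, and in 3.97% of all 32851 windows of that length. The 10 genes were chosen as an Atf4 set, so these counts are no test. The cyclic AMP response element TGACGTCA (1.79% of windows), the unfolded protein response element TGACGTGG (0.676%) and the ER stress element (0.119%) had no match in the 12 windows. The 3 matches are shown because the element is the one through which ATF4 is known to bind; capitals mark the match, within 30 bases written 5′ to 3′ on the gene's strand.
Trib3, chr2:152344028-152344057, minus strand: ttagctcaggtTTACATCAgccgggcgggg
Chac1, chr2:119351038-119351067, plus strand: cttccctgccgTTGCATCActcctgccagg
Asns, chr6:7693214-7693243, minus strand: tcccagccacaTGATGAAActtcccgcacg
The match lay 15 to 22 bases after the start in Trib3, from -193 to -186 in Chac1 and from -23 to -16 in Asns. A match describes the letters of the window and is no evidence of binding. None of these 3 genes passed the test in any of the 5 contrasts below.

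Sequencing depth was uneven. Libraries held 7.55 M to 17.4 M counts, but the ribosomal precursor Rn45s took 77.4% of those in DMSO Ova A, which left 1.77 M counts on other genes. It took 7.83% in DMSO IC A and 1.41% to 4.40% in the other 10. The 8 macrophage markers (Adgre1, Csf1r, Cd68 and Lyz2 among them) summed to between 6325 and 8484 CPM (counts scaled to a common library size, TMM-normalized) in each library. The 6 neutrophil markers measured summed to between 7.70 and 41.2 CPM, and the markers of B cells, T or NK cells, dendritic cells, stromal and erythroid cells to at most 1.45 CPM per class. Nkg7 and Hbb-bs were at 0 in all 12 libraries. In bulk RNA, fewer cells of a type and less RNA per cell cannot be told apart.

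Per kilobase of exon, Atf4 was the most abundant of the 10 genes in each group, at 56.6 ± 7.74 CPM per kb in DMSO Ova (SD, n = 3). Asns (31.4 ± 8.66), Ddit3 (25.7 ± 27.6) and Xbp1 (21.8 ± 1.13) followed there, at levels that overlapped within their spread. Atf5 stood at 12.5 ± 2.84 and Psat1 at 7.53 ± 2.23 CPM per kb. Trib3 (2.88 ± 0.986) and Sesn2 (2.27 ± 0.436) were close to each other, and so were Chac1 (0.692 ± 0.353) and Ddit4 (0.373 ± 0.222). Counts of the last pair were low, from 1 to 35 for Chac1 and from 2 to 39 for Ddit4. Under iBET, Sesn2 stood above Trib3, at 6.35 ± 0.424 against 4.08 ± 0.508 CPM per kb in Ova and 7.93 ± 0.201 against 4.31 ± 0.886 in IC. Ddit4 and Chac1 overlapped there, at 1.37 ± 0.400 against 0.979 ± 0.144 CPM per kb in Ova and 1.48 ± 0.490 against 1.20 ± 0.0856 in IC.

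**Figure D1:**
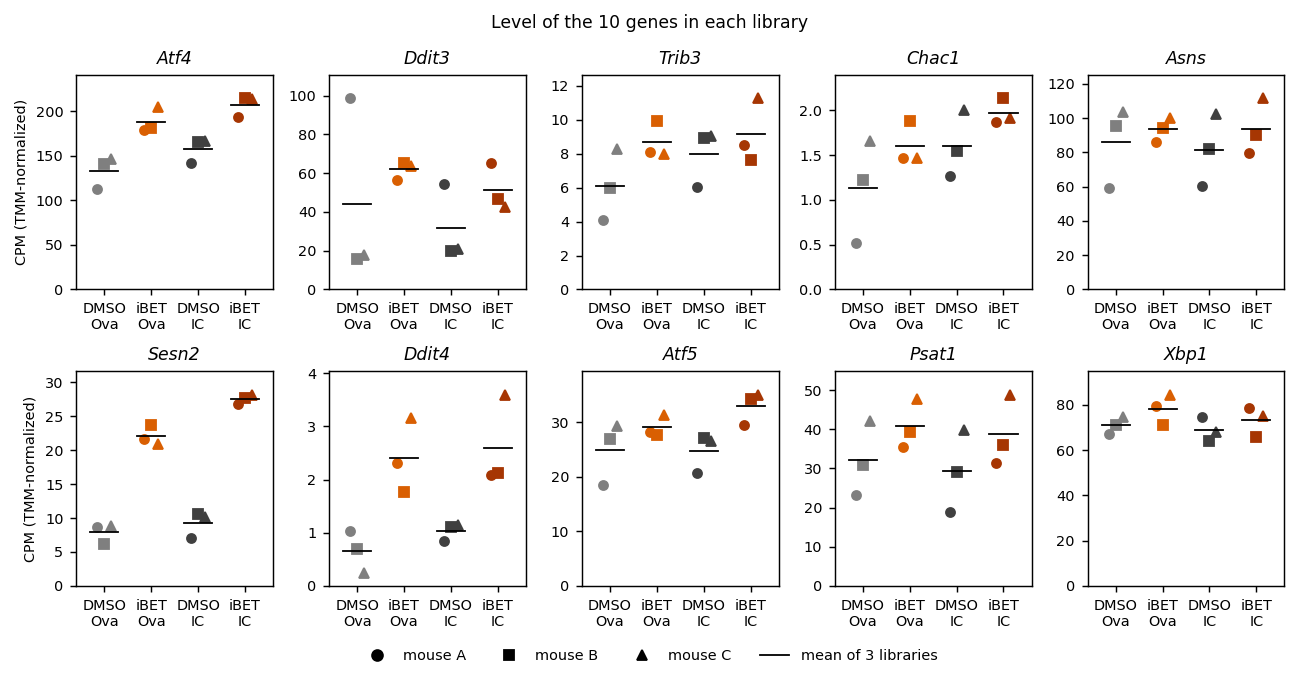
Level of each of the 10 genes (CPM, linear axis from 0) in 12 libraries, by group; symbols mark the mouse and lines the mean of 3 libraries. Sesn2 lay between 6.13 and 10.6 CPM in DMSO and between 20.9 and 28.2 CPM in iBET, and Ddit3 was highest in DMSO Ova A, at 98.6 CPM.

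The comparison of iBET with DMSO asked how these transcripts differed between drug and solvent under each stimulus. Atf4, Sesn2 and Ddit4 were higher with iBET in both Ova and IC, and the other 7 genes were not called in either. A gene was called at a Benjamini-Hochberg adjusted p under 0.05 over all genes tested in edgeR's quasi-likelihood fit, which had no term for mouse. That is 3 of 10 in Ova, where 31.3% of all genes were called (17.1% higher), and 3 of 10 in IC, where 34.8% were called (19% higher). The share called in either direction in this fit was thus near the background. All called genes were higher, a share above that of all genes called higher. The 10 genes were chosen with earlier results of these data known, so these shares are descriptions and no test. With mouse as a block in edgeR, which uses the pairing, Psat1 was also called in both and Atf5 in IC, as given below. The fitted change was positive for 10 of 10 genes in both, as it was for 51.6% of all genes in Ova and 49.7% in IC. The median log2 fold change was 0.35 in Ova and 0.40 in IC, against 0.02 and -0.00 over all genes tested. Without both DMSO libraries of mouse A, Asns was at -0.12 in Ova and Trib3 at -0.0087 in IC.

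**Figure D2:**
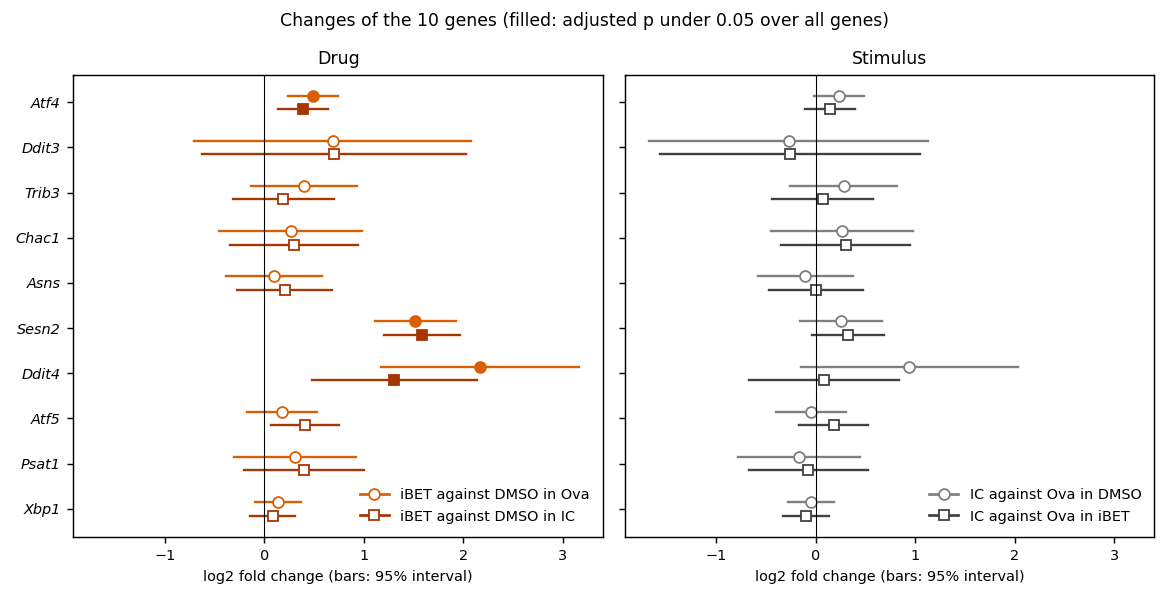
Fitted log2 fold change of the 10 genes with its 95% interval, for iBET against DMSO (left, circles in Ova and squares in IC) and for IC against Ova (right, circles in DMSO and squares in iBET); filled symbols passed the test over all genes. Sesn2 is at 1.52 and 1.58 on the left, and no symbol on the right is filled.

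Atf4 (chromosome 15, 80255184 to 80257541, plus strand, GRCm38/mm10), the transcription factor itself, stood at 112, 141 and 146 CPM in DMSO Ova and at 178, 181 and 204 CPM in iBET Ova for mice A, B and C. In IC it stood at 142, 165 and 166 CPM with DMSO and at 194, 214 and 213 CPM with iBET. The iBET libraries lay above the DMSO libraries under both stimuli, without overlap, as did 25.2% of all genes in Ova and 26.3% in IC. The log2 fold change was 0.49 (SE 0.12, adjusted p 0.00711) in Ova and, with IC, 0.39 (SE 0.12, adjusted p 0.0193), which is 1.40-fold (95% interval 1.18 to 1.67) and 1.31-fold (1.10 to 1.56). The call in IC was lost without DMSO IC A (adjusted p 0.1), iBET IC B (0.0637) or iBET IC C (0.0611), and both calls were lost without mouse B (0.0858 in Ova and 0.168 in IC) or mouse C (0.0622 and 0.094).

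The upstream stretch of Atf4, shown as that of the gene that names the pathway, runs over chr15:80254934-80255183 on the plus strand and held none of the 4 motifs.
Atf4: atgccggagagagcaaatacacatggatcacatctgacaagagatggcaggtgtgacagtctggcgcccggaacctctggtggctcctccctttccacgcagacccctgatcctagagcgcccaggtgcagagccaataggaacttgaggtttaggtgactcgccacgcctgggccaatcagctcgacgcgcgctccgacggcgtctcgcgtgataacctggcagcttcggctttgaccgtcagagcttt

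Sesn2 and Ddit4 encode inhibitors of mTORC1, the first a leucine-sensing sestrin and the second REDD1. Sesn2 (chromosome 4, 132492032 to 132510501, minus strand) had the change with the smallest p of the 10 genes in both drug contrasts. It stood at 8.73, 6.13 and 8.79 CPM in DMSO Ova and rose to 21.6, 23.7 and 20.9 CPM in iBET Ova. In IC the values were 6.99, 10.6 and 10.1 CPM with DMSO and 26.8, 27.7 and 28.2 CPM with iBET. Each of the 6 iBET libraries thus exceeded each of the 6 DMSO libraries, and the log2 fold change was 1.52 (SE 0.19, adjusted p 7.85e-05) in Ova and, with IC, 1.58 (SE 0.18, adjusted p 3.30e-05). Sesn2 was called in all 26 alternative fits of each drug contrast, with adjusted p values up to 0.0153 in Ova and 0.0039 in IC, both without mouse B.

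Ddit4 (chromosome 10, 59949669 to 59951834, minus strand) was called on few reads. In Ova its 3 DMSO libraries held 2, 9 and 3 counts (1.03, 0.69 and 0.249 CPM) and its iBET libraries 30, 16 and 28 counts (2.32, 1.76 and 3.16 CPM). In IC the DMSO libraries held 10, 10 and 12 counts (0.842, 1.10 and 1.14 CPM) and the iBET libraries 39, 22 and 30 counts (2.08, 2.13 and 3.60 CPM). All iBET libraries lay above all DMSO libraries, with a log2 fold change of 2.16 (SE 0.46, adjusted p 0.00347) in Ova and, with IC, 1.31 (SE 0.38, adjusted p 0.0189). The fold change in Ova, 4.48, had a 95% interval from 2.25 to 8.95. The call in IC was lost without DMSO IC A (adjusted p 0.0756), without iBET IC C (0.0746), without any 1 of the 3 mice (0.0664 to 0.0923) and on the deposited normalized signal (0.0547), and that in Ova without mouse C (0.0643).

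The upstream stretches of these other called genes, which also held none of the 4 motifs, run over chr4:132510502-132510706 and chr10:59951835-59952020, both on the minus strand.
Sesn2: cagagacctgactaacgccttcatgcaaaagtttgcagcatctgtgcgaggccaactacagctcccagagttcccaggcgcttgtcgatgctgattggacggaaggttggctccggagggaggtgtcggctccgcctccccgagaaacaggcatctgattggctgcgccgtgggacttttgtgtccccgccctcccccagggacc
Ddit4: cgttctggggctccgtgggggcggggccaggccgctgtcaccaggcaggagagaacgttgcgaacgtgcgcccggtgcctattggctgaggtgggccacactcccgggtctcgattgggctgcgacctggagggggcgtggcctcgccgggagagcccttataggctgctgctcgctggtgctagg

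Ddit3 (chromosome 10, 127290774 to 127296288, plus strand), the pro-apoptotic factor CHOP, was called or not depending on the fit and on the libraries of mouse A. In DMSO Ova it stood at 98.6, 15.8 and 17.7 CPM and in iBET Ova at 56.7, 65.5 and 63.9 CPM, for mice A, B and C. In IC it stood at 54.3, 19.8 and 21.1 CPM with DMSO and at 65.4, 46.9 and 42.4 CPM with iBET. The DMSO libraries of mice B and C were thus the 4 lowest of all 12, whereas both DMSO libraries of mouse A lay within or above the range of the iBET libraries. In the fit of all 12 libraries without a block Ddit3 was not called, at a log2 fold change of 0.69 (SE 0.63, adjusted p 0.449) in Ova and, with IC, 0.70 (SE 0.60, adjusted p 0.398). Nor was it called with mouse as a block (1.05, adjusted p 0.155, and 0.83, adjusted p 0.219). With 1 surrogate variable, which also kept all 12 libraries, it was called in Ova (1.56, SE 0.15, adjusted p 1.45e-06), and with IC it stood at 1.23 (SE 0.14, adjusted p 8.39e-06).

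In DESeq2 Ddit3 was at 0.47 in Ova (adjusted p 0.651). In edgeR it was at 0.22 there without DMSO Ova B and 0.26 without DMSO Ova C. It was at 0.15 without mouse B and 0.23 without mouse C (adjusted p 0.812 to 0.924 over these omissions). With IC it was at 0.46 without DMSO IC B and 0.48 without DMSO IC C (adjusted p 0.629 and 0.621). Without DMSO Ova A, Ddit3 was called in Ova (log2 fold change 1.84, SE 0.41, adjusted p 0.00904). Without both DMSO libraries of mouse A, an alternative chosen after seeing the data, it was called under both stimuli, at 1.85 in Ova (SE 0.17, adjusted p 2.85e-06) and, with IC, at 1.32 (SE 0.16, adjusted p 4.30e-05), and likewise without mouse A (1.92 and 1.12, adjusted p 7.80e-07 and 3.71e-05). Without both DMSO libraries of mouse A the count was 4 of 10 in Ova (Ddit3 added) and 3 of 10 in IC, where Ddit3 was called and Ddit4 was not (adjusted p 0.0598). Without mouse A the same genes were called in Ova. In IC the genes called were then Ddit3, Atf4, Sesn2 and Atf5, and Ddit4 was not called (adjusted p 0.0664). The share of all genes called in these fits is not given here. Those DMSO libraries are the ones with the highest shares of Rn45s, 77.4% and 7.83%. With the Rn45s counts removed and all 12 libraries kept, Ddit3 was still not called in edgeR. It was then at 0.67 (adjusted p 0.448) in Ova and 0.70 (adjusted p 0.388) in IC. That fit changes only the scaling, and any other link of Rn45s share with the Ddit3 level of those libraries was not tested. Ddit3 shares 105 exon bases (6.13% of its exons) with a second protein-coding entry of the same symbol on the same strand. How such reads were counted was not stated. It also shares 68 exon bases (3.97%) with Mars on the opposite strand, and the use of strand in counting was not stated. Mars stood at 48.8 CPM in DMSO Ova A and at 56.7 and 71.0 CPM in those of mice B and C, and the part of shared reads in the Ddit3 level was not tested.

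**Figure D3:**
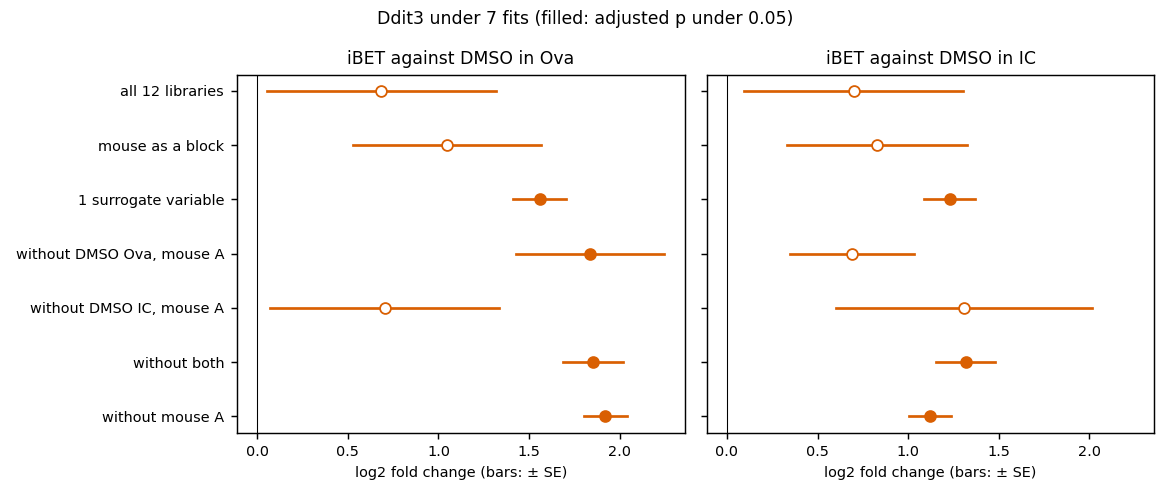
Log2 fold change of Ddit3 with its SE under 7 fits, for iBET against DMSO in Ova (left) and in IC (right); filled symbols had an adjusted p under 0.05. Among these 7 fits the value in Ova ranged from 0.69 with all 12 libraries to 1.92 without mouse A. Fits not drawn here gave lower values, down to 0.15 without mouse B.

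Trib3 and Chac1 are targets of ATF4 and CHOP that encode a pseudokinase and an enzyme that degrades glutathione. Trib3 (chromosome 2, 152337422 to 152344032) stood at 4.11, 5.98 and 8.29 CPM in DMSO Ova and at 8.10, 9.93 and 8.01 CPM in iBET Ova. In IC its values were 6.06, 8.91 and 9.06 CPM with DMSO and 8.54, 7.65 and 11.3 CPM with iBET. The groups overlapped under both stimuli, and the log2 fold change was 0.40 (95% interval -0.14 to 0.94) in Ova and 0.19 (-0.32 to 0.70) in IC. Chac1 (chromosome 2, 119351229 to 119354381) overlapped too, at 1.13 ± 0.578 against 1.60 ± 0.236 CPM in Ova and 1.60 ± 0.373 against 1.97 ± 0.140 CPM in IC (SD, n = 3). These intervals leave room for changes of up to 1.91-fold for Trib3 and 1.97-fold for Chac1 in Ova.

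Asns and Psat1 make amino acids, the first asparagine and the second an intermediate of serine. Asns (chromosome 6, 7675169 to 7693254) stood at 59.1, 95.2 and 104 CPM in DMSO Ova and at 86.0, 94.4 and 100.2 CPM in iBET Ova. In IC it stood at 60.1, 81.9 and 102 CPM with DMSO and at 79.8, 90.1 and 111 CPM with iBET, again with overlap. The log2 fold change was 0.10 (95% interval -0.38 to 0.58) in Ova and 0.20 (-0.27 to 0.68) in IC. In each of the 4 groups Asns and Psat1 were lowest in mouse A and highest in mouse C, so mice differed within every group in the same order.

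Psat1 (chromosome 19, 15904678 to 15947337) stood at 23.1, 30.9 and 42.0 CPM in DMSO Ova and at 35.6, 39.3 and 47.6 CPM in iBET Ova. In IC it stood at 18.9, 29.2 and 39.8 CPM with DMSO and at 31.5, 36.0 and 48.8 CPM with iBET. The groups overlapped, but Psat1 was higher with iBET within 3 of 3 mice under both stimuli. It was not called without a block (log2 fold change 0.31, adjusted p 0.441 in Ova, and 0.40, adjusted p 0.285 in IC) and was called with mouse as a block (0.37, SE 0.13, adjusted p 0.0364, and 0.44, SE 0.12, adjusted p 0.013). In Ova that call was not made with the block in DESeq2 (adjusted p 0.0868).

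Atf5, a transcription factor related to ATF4 and likewise under translational control, and Xbp1 completed the set. Atf5 (chromosome 7, 44812256 to 44816658) stood at 20.6, 27.2 and 26.5 CPM in DMSO IC and at 29.5, 34.3 and 35.0 CPM in iBET IC, without overlap, at a log2 fold change of 0.41 (SE 0.16, adjusted p 0.0628). With mouse as a block it was called in IC (0.42, SE 0.12, adjusted p 0.0134), as it was without DMSO Ova A (0.39, adjusted p 0.0404). In Ova the groups overlapped, at 24.9 ± 5.65 CPM with DMSO and 29.1 ± 2.02 CPM with iBET (SD, n = 3, log2 fold change 0.18, adjusted p 0.434, and 0.21, adjusted p 0.21 with the block). Atf5 shares 82 exon bases (4.11% of its exons) with Nup62 and Il4i1 on the opposite strand, which limits its value.

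Xbp1 (chromosome 11, 5520659 to 5525893) lay between 63.8 and 84.4 CPM in the 12 libraries, and the groups overlapped under both stimuli. Its log2 fold change was 0.14 (95% interval -0.09 to 0.37) in Ova and 0.09 (-0.14 to 0.31) in IC, so that a rise above 1.29-fold in Ova or 1.24-fold in IC lay outside the interval. With mouse as a block, 4 of 10 genes were called in Ova (Psat1 added) and 5 of 10 in IC (Psat1 and Atf5 added). That moved the count in IC by more than 1.5 times. Calls over all genes also moved with the fit, from 1310 to 4577 in Ova and from 1769 to 4947 in IC over the alternatives. The share of all genes called with the block is not given here, so these counts have no background beside them.

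The comparison of IC with Ova asked whether Fc gamma receptor engagement moves these transcripts. In DMSO 0 of 10 were called and 0 had an unadjusted p under 0.05 in edgeR, where 1.22% of all genes were called and 11.7% had such a p. In iBET 0 of 10 were called and 0 had an unadjusted p under 0.05, where 0.349% and 7.5% of all genes did. DESeq2 also called 0 of 10 in both. Over the 10 genes the log2 fold change had a median of 0.09 in DMSO and 0.08 in iBET, against -0.01 in both over all genes tested.

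Atf4 was higher with IC within every mouse (3 of 3) in either arm, at a log2 fold change of 0.23 (95% interval -0.02 to 0.49) in DMSO and 0.14 (-0.11 to 0.39) in iBET. Sesn2 changed by 0.26 (-0.16 to 0.67) in DMSO. In iBET its 3 IC libraries lay above its 3 Ova libraries (0.32, -0.04 to 0.68, adjusted p 0.729), 1 of 10 genes without overlap, where 9.53% of all genes were higher without overlap. The interval of Ddit4 in DMSO was wide (0.94, -0.15 to 2.03). Ddit3 stood at -0.27 (-1.68 to 1.13) in DMSO and -0.26 (-1.57 to 1.05) in iBET. Without mouse A it was called lower with IC in iBET (-0.51, SE 0.11, adjusted p 0.0364), the 1 case in which a gene of the set was called for the stimulus.

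The interaction, the difference in IC response between the iBET and the DMSO arm, was called for 0 of 10 genes, 0 of which had an unadjusted p under 0.05. Over all genes 0% were called and 2.55% had an unadjusted p under 0.05 in edgeR. The interval was -0.45 to 0.26 for Atf4 and -0.49 to 0.62 for Sesn2, both on the log2 scale. It was wider for Ddit4 (-2.18 to 0.47) and Ddit3 (-1.91 to 1.94), so that a difference of more than 2-fold lay within the interval, in the negative direction for Ddit4 and in both for Ddit3.

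The wider pathway was read from 5 lists of 71 genes, of which 66 were tested. Pycr1, Slc7a3, Fgf21, Vldlr and Stc2 fell below the filter. The lists were chosen with earlier results of these data known. Their shares beside those of all genes, here and below, are therefore descriptions and no test. With iBET, 21 of 66 were called higher and 2 lower in Ova (34.8%) and 24 higher and 2 lower in IC (39.4%), against 31.3% and 34.8% of all genes called. Counts per list ran from 0 of 13 for tRNA charging in IC to 11 of 18 for the ER unfolded protein response in IC.

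**Figure D4:**
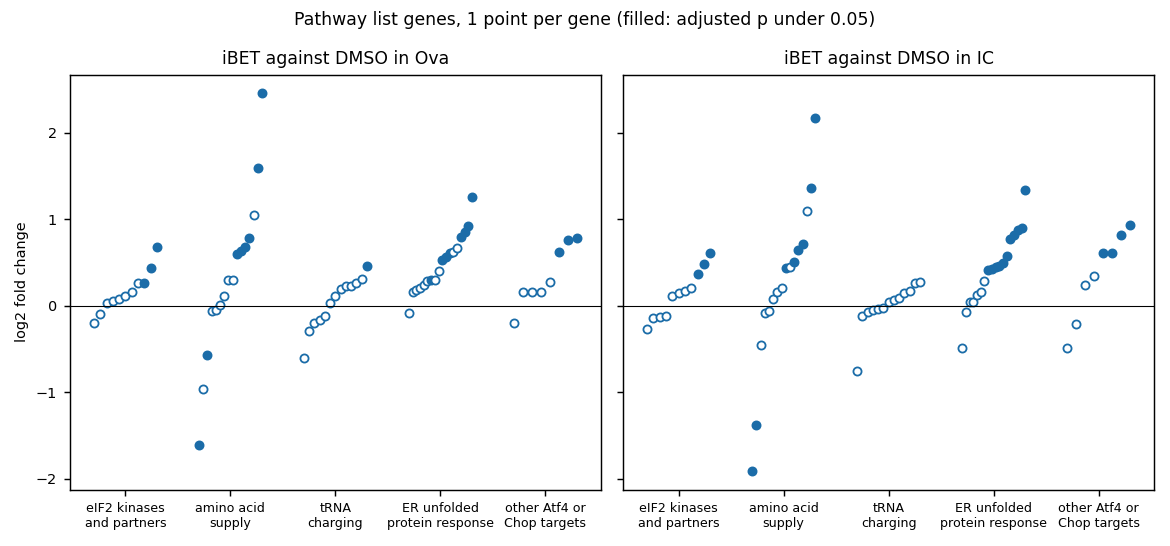
Log2 fold change with iBET of the 66 tested genes of 5 pathway lists in Ova (left) and in IC (right), 1 point per gene in rising order within a list; filled points had an adjusted p under 0.05. In the ER unfolded protein response list 8 of 18 points on the left and 11 of 18 on the right are filled, all above 0.

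Of the 18 genes of the ER unfolded protein response, 8 rose with iBET in Ova and 11 in IC, and 0 fell. That is 44.4% in Ova, against 31.3% of all genes called and 17.1% called higher. In IC it is 61.1%, against 34.8% called and 19% called higher. Without mouse B the number called in either direction was 4 in Ova and 3 in IC, without mouse C 5 and 7, and it was 13 in Ova without mouse A, without both DMSO libraries of mouse A or with 1 surrogate variable. Calls over all genes moved too. Without mouse B they were 1310 in Ova and 1769 in IC, against 3593 and 3987 in the fit of all libraries. With 1 surrogate variable they were 4577 in Ova. The median log2 fold change was 0.47 in Ova and 0.44 in IC. Hspa5, the ER chaperone BiP, rose from 701 ± 56.2 to 1677 ± 51.1 CPM in Ova (SD, n = 3) at a log2 fold change of 1.26 (SE 0.10, adjusted p 4.06e-06). In IC it went from 723 ± 50.3 to 1837 ± 144 CPM, a change of 1.35 (SE 0.10, adjusted p 1.95e-06). Ern1, which encodes the kinase IRE1 alpha, rose from 56.8 ± 7.00 to 107 ± 2.43 CPM in Ova (0.93, adjusted p 4.58e-05), and with IC it went from 59.4 ± 4.59 to 105 ± 5.64 CPM (0.82, adjusted p 8.30e-05). Both were called in all 26 alternative fits of each drug contrast. Herpud1, a component of ER-associated degradation, rose in IC (0.90, SE 0.28, adjusted p 0.0267) and was at 0.62 (adjusted p 0.14) in Ova. With mouse as a block it was called in Ova too (0.70, adjusted p 0.0215). Its call in IC was lost without DMSO IC A (adjusted p 0.103), iBET IC A (0.0516) or iBET IC C (0.0868), and it was called in Ova without DMSO Ova C (adjusted p 0.033).

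Of 16 amino acid synthesis and transport genes tested, 6 rose and 2 fell with iBET under each stimulus (50% called, against 31.3% and 34.8% of all genes). The 8 calls in Ova became 5 without DMSO Ova C and 3 without mouse B or mouse C, and those in IC became 5 without DMSO IC A or DMSO IC B and 4 without mouse B. Slc1a4, a transporter of neutral amino acids, rose from 3.87 ± 2.00 to 17.6 ± 1.88 CPM under Ova (log2 fold change 2.46, SE 0.29, adjusted p 5.80e-05), and with IC it went from 2.75 ± 0.941 to 12.4 ± 1.49 CPM (2.17, SE 0.27, adjusted p 8.45e-05). Slc7a5, the light chain of the leucine transporter LAT1, rose from 30.5 ± 8.30 to 94.5 ± 9.92 CPM under Ova (a change of 1.60, SE 0.21, adjusted p 0.00017), and with IC it went from 37.3 ± 9.33 to 95.8 ± 14.1 CPM (1.36, SE 0.21, adjusted p 0.00037). Its heavy chain partner Slc3a2 rose by 0.60 and 0.65 on the log2 scale, as did Mthfd2 (0.64 and 0.44), a mitochondrial folate enzyme, and Gpt2 (0.69 and 0.72), an alanine aminotransferase. Those that fell were Aldh18a1, of proline synthesis, and Slc6a9 in Ova, and Slc7a11 and Slc6a9 in IC.

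Aldh18a1 changed by -0.57 (SE 0.19, adjusted p 0.0375) in Ova. That call was lost without DMSO Ova B (adjusted p 0.104), DMSO Ova C (0.145), iBET Ova A (0.133), iBET Ova B (0.0837) or iBET IC B (0.0532). Slc6a9 had a mean of 8 counts. Slc7a11, the cystine transporter, fell with iBET in IC (-1.37, SE 0.31, adjusted p 0.00451) and was at -0.96 (adjusted p 0.0812) in Ova, where it was called without iBET Ova C (adjusted p 0.0437).

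Of 11 eIF2 kinases, phosphatases and partners, 3 rose in each drug contrast and 0 fell. That is 27.3% called, under the 31.3% and 34.8% of all genes called but above the 17.1% and 19% called higher. In Ova 1 was called without iBET Ova B or iBET Ova C and 0 without mouse B or mouse C, and in IC 5 were called without DMSO IC A, without mouse A or without both its DMSO libraries, and 0 without mouse B. Eif2ak4, the amino acid sensing kinase GCN2, rose by 0.44 (SE 0.13, adjusted p 0.0189) in Ova and, with IC, 0.48 (SE 0.12, adjusted p 0.00937). In Ova it was not called without DMSO Ova A (adjusted p 0.0591), DMSO Ova C (0.0727), iBET Ova B (0.0628) or iBET Ova C (0.0617). Eif2ak3, another eIF2 kinase, rose in IC (0.37, SE 0.10, adjusted p 0.0118) and was at 0.26 (adjusted p 0.0678) in Ova. The kinases Eif2ak1 and Eif2ak2 were not called in either. Eif2b5 rose in Ova (0.27, adjusted p 0.0466) and was at 0.12 (adjusted p 0.351) in IC. Ppp1r15a, the GADD34 subunit that directs dephosphorylation of eIF2, rose in Ova from 26.0 ± 1.93 to 42.0 ± 4.79 CPM (by 0.68, SE 0.15, adjusted p 0.00451) and was at 0.21 (adjusted p 0.278) in IC, where it was called without DMSO IC A (0.37, adjusted p 0.0486). Atf3, a transcription factor induced by ATF4, rose in IC from 117 ± 8.43 to 178 ± 16.4 CPM (0.61, SE 0.11, adjusted p 0.00103) and was at 0.16 (adjusted p 0.285) in Ova. The interaction was called for neither gene.

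Of 13 tRNA charging genes, 1 rose in Ova (7.69%, under the 31.3% of all genes called and the 17.1% called higher). It was the cysteinyl-tRNA synthetase gene Cars (0.46, SE 0.12, adjusted p 0.0106). In IC 0 were called (Cars 0.28, adjusted p 0.083), where 34.8% of all genes were. There 2 of 13 had an unadjusted p under 0.05 in edgeR, and DESeq2 called 0. With mouse as a block, 5 of 13 were called in Ova and 2 of 13 in IC, Cars among the latter (adjusted p 0.0385), and without iBET Ova C Cars was also called in IC (adjusted p 0.0392). The shares of all genes with an unadjusted p under 0.05 in IC, or called with the block, are not given here. Of the 8 tested genes among other targets of ATF4 or CHOP, 3 rose in Ova and 4 in IC. That is 37.5% in Ova, against 31.3% of all genes called and 17.1% called higher. In IC it is 50%, against 34.8% called and 19% called higher. The number called fell to 1 in Ova without mouse B or mouse C, and in IC to 2 without DMSO IC A, iBET IC B or mouse B and to 1 without mouse C. Ero1l, the ER oxidase, rose by 0.79 (SE 0.12, adjusted p 0.000336) in Ova and, with IC, 0.82 (SE 0.12, adjusted p 0.000175), and was called in all 26 alternative fits of each. Tnfrsf10b, the death receptor that CHOP is known to induce, rose by 0.76 (adjusted p 0.0281) in Ova and 0.62 (adjusted p 0.0485) in IC. Of the 12 fits without 1 library, 4 lost its call in Ova (without DMSO Ova C or any of the 3 iBET Ova libraries, adjusted p 0.0526 to 0.0754) and 10 lost that in IC (all but those without DMSO Ova A or DMSO Ova B, up to 0.154).

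For IC against Ova, 2 of 66 list genes were called in DMSO (3.03%, background 1.22%) and 0 in iBET (background 0.349%). In iBET 10 of 66 had an unadjusted p under 0.05 in edgeR, as did 7.5% of all genes. Cebpb, a C/EBP partner of ATF4, rose from 80.6 ± 14.3 to 133 ± 18.8 CPM (log2 fold change 0.71, SE 0.14, adjusted p 0.0279) and was at 0.53 (adjusted p 0.183) in iBET. Slc7a11 rose from 2.90 ± 0.457 to 9.24 ± 2.44 CPM (1.69, SE 0.34, adjusted p 0.0331) and was at 1.27 (adjusted p 0.278) in iBET. Both calls were lost without mouse B or C and when the compared groups were fitted alone (adjusted p 0.289 and 0.122). Both were lost without DMSO Ova A (0.0787 and 0.0553), DMSO Ova B (0.147 and 0.187), iBET Ova B (0.0568 and 0.064), DMSO IC B (0.107 and 0.119) or DMSO IC C (0.099 and 0.099). Slc7a11 was also not called without DMSO Ova C (0.0994) or iBET IC C (0.0527). The difference between arms was not called for either.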

How the data were processed

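RNA-seq of 12 libraries was analysed in 4 groups of 3; the labels have the cells sorted before lysis, whereas the study's methods have them lysed in culture. The authors trimmed reads with Trim Galore, aligned them to mm10 with HISAT2 and assigned them with featureCounts, and deposited whole counts per gene symbol; per the labels, libraries came from a low-input SMARTer total RNA kit. The gene annotation, strand setting and handling of multi-mapping reads are not given in the sources used here. The deposited normalized signal equalled counts divided by DESeq2 size factors (largest relative gap 4.89e-15).

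Counts were fitted in edgeR 4.0.16 (R 4.3.3; filterByExpr, minimum count 10; TMM; robust quasi-likelihood; 1 term per group; no block), with Benjamini-Hochberg adjustment over 11468 genes and two-sided p. SE is the absolute log2 fold change over the square root of F. Within-mouse changes used log2 CPM with a prior count of 2. Positions and exon lengths came from GENCODE vM21, promoters from RefSeq. The fit was tested on simulated data.

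The members and pathway lists were chosen with earlier results of these data known. The text names all 10 members, list genes called for IC or the interaction and, per list and drug contrast, the 2 largest rises and 2 largest falls among called genes with a mean count of at least 50. Other list genes were named after their values were seen. Genes most like Atf4 were ranked by Pearson correlation over 12 libraries.

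The labels pair libraries by animal. Deviations from group means correlated between -0.07 and 0.54 (median 0.26) in 18 same-mouse pairs and between -0.50 and 0.27 (median -0.13) in 36 pairs of different mice and groups. Alternatives were DESeq2 1.42.0, its size factors in edgeR, 1 surrogate variable (sva 3.50.0), a mouse block (in either tool), no low-count filter or a minimum of 10 counts per library, separate fits of the compared groups, the deposited signal in limma 3.58.1 with a pseudocount of 1, removal of Rn45s, and omission of each library, each mouse or, added after seeing the data, both DMSO libraries of mouse A. With 2 libraries left in a group, its spread is assumed to be that of the others.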

Additional observations from a re-analysis of the deposited data

How the results depend on the processing

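For iBET against DMSO in IC, 5 of 10 genes were called with the replicate block (mouse) in edgeR, 5 with it in DESeq2 and 5 with 1 surrogate variable (Ddit3 and Atf5 added), against 3 without. With 1 surrogate variable, 4947 of all genes were called there, against 3987 without. The pairing changed no call of the 10 genes for IC against Ova or the interaction. Totals over all genes are given below only as ranges over the alternatives. Unless a total for the same fit is printed, a count of members or list genes under an alternative fit, such as the mouse block, has no background beside it. Omitting 1 library or 1 mouse left 1 to 4 genes called in Ova, 1 to 4 in IC, and 0 to 1 for IC against Ova in iBET. Requiring at least 10 counts in every library removed Trib3, Chac1 and Ddit4. With the deposited signal in limma, Ddit4 was not called in IC. Over all genes, the count for iBET against DMSO ranged from 1310 to 4577 in Ova (3593 as reported) and from 1769 to 4947 in IC (3987), that for IC against Ova from 0 to 437 in DMSO (140) and from 0 to 305 in iBET (40), and that for the interaction from 0 to 7 (0).

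Changes that were not called turned sign as follows, on the log2 scale; the cause was not tested. With 1 surrogate variable, Asns was at -0.018 for iBET in Ova and -0.10 for IC in iBET, Trib3 at -0.026 for IC in iBET, and Ddit3 at 0.28 for IC in DMSO and -0.33 for the interaction. Without both DMSO libraries of mouse A, Asns was at -0.12 for iBET in Ova, Trib3 at -0.0087 for iBET in IC, Ddit3 at 0.28 for IC in DMSO and -0.53 for the interaction, and Sesn2 at -0.14 for the interaction. In limma, Atf5 was at 0.012 for IC in DMSO and Ddit3 at -0.19 for the interaction. With the mouse block in edgeR and in DESeq2, Asns was at -0.011 and -0.0049 for IC in iBET, and Ddit3 at -0.22 and -0.13 for the interaction.

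Omitting 1 library or mouse gave, for iBET in Ova, Asns -0.14 to 0.24 and Cebpb -0.26 to 0.088; for iBET in IC, Trib3 -0.012 to 0.38, Asns -0.0018 to 0.40 and Aldh18a1 -0.24 to 0.062. For IC in DMSO it gave Ddit3 -0.86 to 0.89, Asns -0.31 to 0.069, Sesn2 -0.0395 to 0.48, Atf5 -0.20 to 0.071, Psat1 -0.46 to 0.076 and Xbp1 -0.13 to 0.0064. For IC in iBET it gave Trib3 -0.14 to 0.29, Asns -0.14 to 0.11, Ddit4 -0.19 to 0.30 and Psat1 -0.27 to 0.055, and for the interaction Atf4 -0.17 to 0.034, Ddit3 -1.15 to 0.61 and Sesn2 -0.13 to 0.41.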

Other observations

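The 5 genes whose level followed Atf4 most closely over the 12 libraries, among 9427 genes ranked, were Notch2 (Pearson r 0.986), Eef2 (0.965), D10Wsu102e (0.965), Abhd2 (0.964) and Hyou1 (0.964). The 12 libraries share 3 mice and the contrast of drug and solvent, so these values are descriptions. Notch2, a receptor of the Notch pathway, stood at 197 ± 39.5 CPM in DMSO Ova, 344 ± 39.9 in iBET Ova, 253 ± 45.2 in DMSO IC and 401 ± 21.2 in iBET IC (SD, n = 3). All 5 were called higher with iBET in Ova and in IC, D10Wsu102e with an adjusted p of 0.048 in IC. Hyou1, an ER chaperone, is also a gene of the unfolded protein response list. Among the members with enough counts, r with Atf4 was 0.884 for Atf5, 0.863 for Sesn2, 0.787 for Trib3, 0.678 for Psat1, 0.608 for Asns, 0.315 for Xbp1 and 0.113 for Ddit3. In the same order they ranked 380, 592, 1243, 2097, 2542, 3857 and 4594 among the 9427 genes. Many genes outside the set thus followed Atf4 more closely than its members did.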
